A study of Mus musculus with 10 samples.

Results

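Dectin-1 and its relatives are C-type lectin receptors of myeloid cells, and the transcripts of 10 of their genes were followed here in sorted cells of the ischemic mouse brain. The genes were given as a list of names, drawn up with earlier results of these data known: Clec7a (Dectin-1), Clec4n (Dectin-2), Clec4d (MCL, also called Dectin-3), Clec4e (Mincle), Clec4b1 (DCAR), Clec5a (MDL-1), Clec12a (MICL), Clec4a1 (DCIR4), Clec4a2 (DCIR1) and Clec4a3 (DCIR3). All 10 were among the 28585 genes of the count table, and all 10 passed the filter on low counts, which kept 15151 genes. These receptors carry a lectin-like domain on the cell surface and bind sugars and lipids of fungi and mycobacteria, and some of them also bind molecules released by dying cells. Activating members signal through the kinase Syk and the adaptor Card9, either by a motif of their own or through the partner chains Fcer1g and Tyrobp, while inhibitory members recruit phosphatases. In the nervous system Clec7a is best known as a marker of microglia near plaques and in ageing or injured tissue.

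The libraries came from the ipsilateral, ischemic hemisphere, and the mice were female where the labels give a sex. The first group, called parabiotic CD11c cells here, held 3 libraries of CD11c-eYFP+ cells from C57BL/6 mice, parabiotic with mice of the line Tg(Itgax-Venus)1Mnz, aged 15 to 16 weeks. Parabiosis joins the circulation of a pair of mice, so that blood-borne cells of the reporter animal can reach the tissues of its partner. Replicate 15 of this group carries the strain label C57BL/6, the variation Tg(Itgax-Venus)1Mnz, and no label of cell type or sex, and it was placed by its title and age. The second group, called transgenic CD11c cells, held 4 libraries of CD11c-eYFP+ cells from Tg(Itgax-Venus)1Mnz mice aged 13 to 14 weeks, in which the promoter of the CD11c gene Itgax drives a yellow reporter. The third group held 3 libraries of CX3CR1+ microglia of CX3CR1CreERT2:Rosa26-tdT mice aged 13 to 14 weeks, whose red reporter depends on a Cre driven by the fractalkine receptor gene. Cells were sorted by fluorescence alone, without staining. Nothing in the labels says how many animals stand behind a library, so the p-values cover the variation among these libraries, part of which may be technical.

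All members lie on mouse chromosome 6 (GRCm38, GENCODE M21 annotation). Clec5a stands alone at chr6:40574894-40585821 on the minus strand. 7 members form a run of 368 kb at chr6:122921848-123289870, in the order Clec4a1, Clec4a3, Clec4b1, Clec4a2, Clec4n, Clec4d and Clec4e, where only Clec4e lies on the minus strand and 6.523 kb separate it from Clec4d. Clec12a lies at chr6:129342691-129365303 on the plus strand and Clec7a at chr6:129461591-129472779 on the minus strand, 96.287 kb apart. No exon of another annotated gene overlaps their exons. Of all 50-base stretches of its exons, Clec4b1 shares 8.68% with Clec4a2, so how reads were divided between those genes is uncertain. Clec4a2 shares 6.83% of its stretches with 447 genes, Clec4b1 among them, and the shared part of each of the other 8 members is under 1%.

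The start-site regions of Clec4d and Clec4e, neighbours with large differences over microglia, of Clec12a, an inhibitory member that was higher in both CD11c groups, of the most abundant member (Clec7a) and of the member that was lower in parabiotic CD11c cells (Clec5a) are shown because 8 of the 9 members with an entry hold the 6 letters GAGGAA near their start site. Each line gives the 250 bases before the RefSeq start site on GRCm38.p6 in the direction of the gene, from chr6:123261857-123262106 (plus) for Clec4d, chr6:123289872-123290121 (minus) for Clec4e, chr6:129349994-129350243 (plus) for Clec12a, chr6:129472780-129473029 (minus) for Clec7a and chr6:40585806-40586055 (minus) for Clec5a. Capitals mark GAGGAA or its reverse complement TTCCTC and, in Clec12a, the palindrome TTGCGCAA.
Clec4d: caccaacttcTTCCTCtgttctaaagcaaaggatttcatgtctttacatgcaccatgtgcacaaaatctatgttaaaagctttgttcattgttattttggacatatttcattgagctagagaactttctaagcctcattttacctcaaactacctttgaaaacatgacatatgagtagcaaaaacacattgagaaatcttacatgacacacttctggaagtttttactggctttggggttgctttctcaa
Clec4e: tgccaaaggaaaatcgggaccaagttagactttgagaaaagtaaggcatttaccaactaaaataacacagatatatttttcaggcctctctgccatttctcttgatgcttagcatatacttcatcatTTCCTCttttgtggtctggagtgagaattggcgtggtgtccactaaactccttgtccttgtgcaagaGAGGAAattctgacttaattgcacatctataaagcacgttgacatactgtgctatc
Clec12a: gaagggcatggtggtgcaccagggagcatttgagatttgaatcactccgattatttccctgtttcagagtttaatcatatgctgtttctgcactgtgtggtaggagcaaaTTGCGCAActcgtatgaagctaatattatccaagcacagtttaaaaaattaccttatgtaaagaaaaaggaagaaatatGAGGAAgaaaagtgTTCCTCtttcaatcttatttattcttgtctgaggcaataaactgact
Clec7a: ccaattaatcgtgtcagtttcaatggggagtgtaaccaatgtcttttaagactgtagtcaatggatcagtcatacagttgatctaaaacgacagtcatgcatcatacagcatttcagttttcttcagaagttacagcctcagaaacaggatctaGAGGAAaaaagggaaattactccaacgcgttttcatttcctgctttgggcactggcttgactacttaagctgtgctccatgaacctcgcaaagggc
Clec5a: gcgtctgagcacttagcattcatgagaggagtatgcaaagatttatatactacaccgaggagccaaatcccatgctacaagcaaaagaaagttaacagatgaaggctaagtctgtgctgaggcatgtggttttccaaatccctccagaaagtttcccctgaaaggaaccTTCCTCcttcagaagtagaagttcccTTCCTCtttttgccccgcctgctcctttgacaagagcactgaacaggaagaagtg

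GAGGAA is the core of the sites read by the myeloid transcription factor PU.1, and on both strands it occurs in 28.3% of the 32851 RefSeq promoter windows of 300 bases (250 before and 50 after the start site). This 6-letter search was added after the sequences had been seen. Clec4a2 was the member without it, and Clec4n had no entry. The 9 members have 11 windows, and a member counts where any of its windows matches, while the share is over single windows. A window of Clec4a3 held no match. The longer form GAGGAAGT, which contains the core, occurs in 3.2% of windows and in 0 of the 9 members. The C/EBP palindrome TTGCGCAA occurs in 0.183% of windows and, among the members, in Clec12a, where it begins at position -140 from the start site. The AP-1 letters TGACTCA occur in 5.2% of windows and, among the members, in Clec4a2 at position 32 after the start site. A pair of NF-kappaB consensus motifs occur in 0.155% and 0.11% of windows and in 0 of the 9 members. The windows of Clec12a and Clec4a2 lie inside the genes as GENCODE annotates them. They begin at chr6:129349994 and chr6:123122440, where the genes begin at chr6:129342691 and chr6:123106428. Their matches therefore refer to RefSeq start sites within the annotated genes. A match is a run of letters, not a measured site.

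Library totals lay between 33229181 and 35129008 counts in parabiotic CD11c cells, between 34982960 and 41730688 in transgenic CD11c cells and between 31534625 and 33605252 in microglia. Levels are counts per 1000000 counts of a library, scaled by TMM (CPM), differences are log2 fold changes ± SE from edgeR's quasi-likelihood test on all genes, and a gene is called at a Benjamini-Hochberg adjusted p under 0.05. The 10 microglia marker genes summed to 2098 to 3652 CPM in parabiotic CD11c cells, 5964 to 17360 CPM in transgenic CD11c cells and 18702 to 21249 CPM in microglia. The 10 dendritic cell markers, among them the MHC class II pathway genes H2-Aa, H2-Ab1 and Cd74, summed to 26947 to 34475 CPM in parabiotic CD11c cells, 4118 to 16991 CPM in transgenic CD11c cells and 234 to 356 CPM in microglia. Such sums follow their most abundant genes and do not measure the content of a cell type. The transgenic libraries therefore held transcripts of both marker lists in amounts that differed between libraries. In bulk samples, fewer cells of a type and less RNA per cell cannot be told apart. Transgenic replicates 26 and 27 carry library numbers apart from the run of consecutive numbers of the other 8 libraries, so each transgenic comparison is also given from a fit with a term for that run, in which the transgenic mean rests on replicates 23 and 24. The labels do not say what these numbers stand for.

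Against microglia, the lectin transcripts of parabiotic CD11c cells were mostly higher. 8 of the 10 members were higher, Clec5a was lower and Clec4a2 was not called, where 17.4% of all 15151 tested genes were higher, 17.9% lower and 35.3% called in either direction. The members' median log2 fold change was 2.87, against -0.02 over all tested genes. The fold changes ran from 5.58 for Clec4d to -0.76 for Clec5a. The libraries of the groups did not overlap for these 9 members, as 30.5% of all genes did not overlap in the higher and 29.7% in the lower direction. Without replicates 11 and 15, which held the most neutrophil transcripts, 1 parabiotic library was left, a setting chosen after seeing the data. No member changed direction there. The log2 fold change of Clec4a3 was then 0.70, against 0.71 with all libraries, and that of Clec5a -0.53 against -0.76.

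In transgenic CD11c cells against microglia, 6 of the 10 members were higher and 4 were not called, where 8.88% of all tested genes were higher, 4.79% lower and 13.7% called in either direction. The 6 were Clec7a, Clec4n, Clec4d, Clec4e, Clec4b1 and Clec12a, and their libraries did not overlap with microglia (15.6% of all genes in that direction). The members' median log2 fold change was 2.02, against 0.02 over all tested genes. Within the library run the same count of 6 was higher, where 8.6% of all genes were called in either direction. This comparison and the one above share the microglia libraries, so their values are given side by side and not as independent evidence of each other.

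Clec7a, the beta-glucan receptor Dectin-1, had the highest level of the 10 in each group, also per kilobase of exon. It stood at 962, 741 and 749.8 CPM in parabiotic replicates 3, 11 and 15, at 697, 631, 718 and 617 CPM in transgenic replicates 23, 24, 26 and 27, and at 185, 289.7 and 374 CPM in microglia replicates 39, 40 and 41. The microglia libraries were the lowest and did not overlap with either CD11c group. Its log2 fold change was 1.53 ± 0.24 in parabiotic CD11c cells over microglia (adjusted p = 0.000538). In transgenic CD11c cells over microglia it was 1.23 ± 0.22 (adjusted p = 0.00533) and within the library run 1.23 ± 0.25 (adjusted p = 0.0143). The transgenic libraries lay close together for this gene, with a ratio of highest to lowest of 1.16. Their dendritic cell and microglia marker sums differed widely, and the part of cell content in these levels was not tested.

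**Figure D1:**
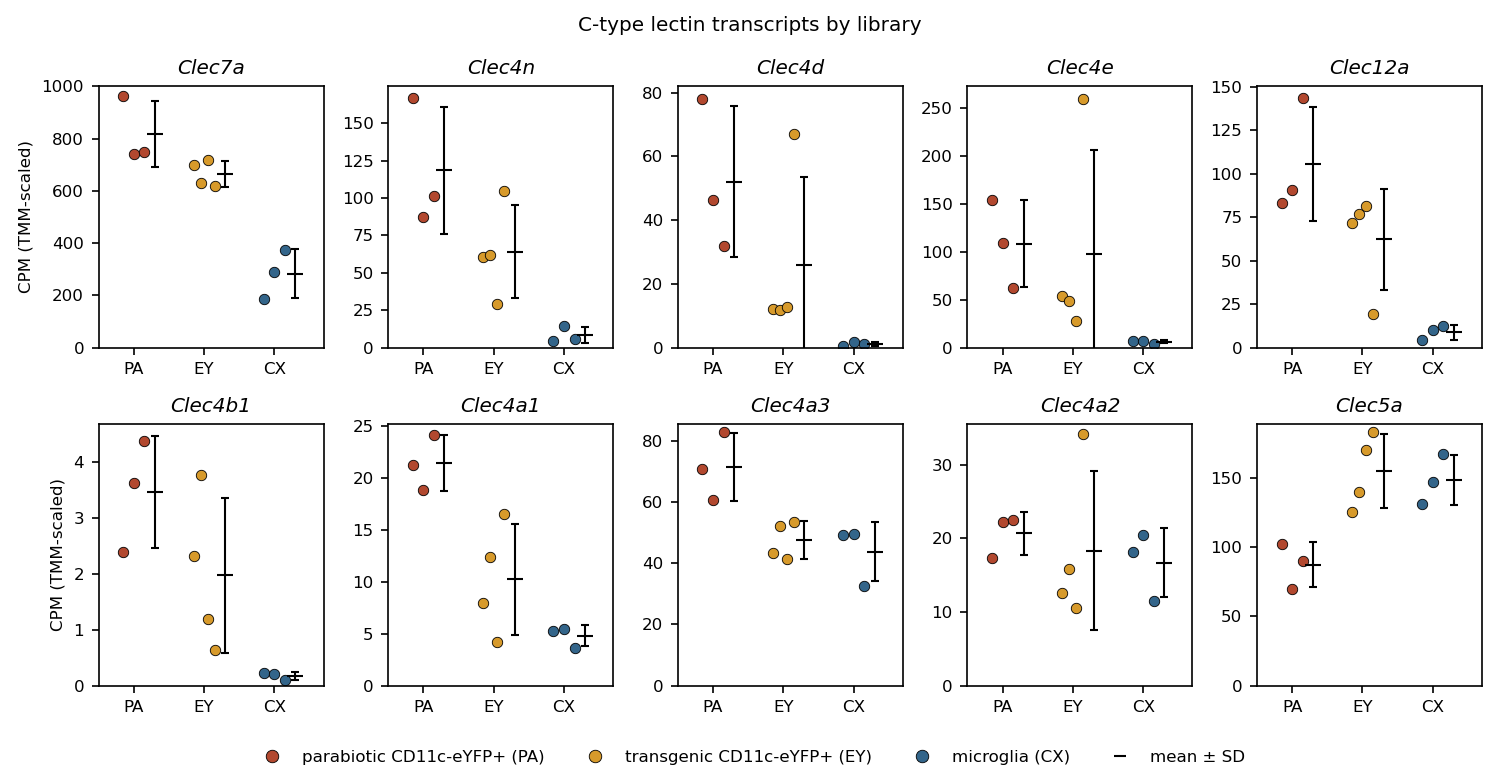
Each point is the CPM (TMM-scaled) of 1 lectin gene in 1 library, for 3 parabiotic CD11c, 4 transgenic CD11c and 3 microglia libraries, with the group mean ± SD beside the points and error bars cut at 0. Clec7a, Clec4n, Clec4d, Clec4e, Clec12a and Clec4b1 are lowest in the 3 microglia libraries, while Clec5a is lowest in the 3 parabiotic libraries.

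The next 4 receptors pair with the ITAM chain Fcer1g. Clec4n, the mannan receptor Dectin-2, stood at 167, 87.3 and 101 CPM in parabiotic replicates 3, 11 and 15, at 60.8, 61.8, 28.8 and 104 CPM in transgenic replicates 23, 24, 26 and 27, and at 4.49, 14.3 and 5.70 CPM in microglia replicates 39, 40 and 41. Every CD11c library lay above every microglia library. The log2 fold change was 3.86 ± 0.55 in parabiotic CD11c cells over microglia (adjusted p = 0.000309) and 2.97 ± 0.51 in transgenic CD11c cells over microglia (adjusted p = 0.00418), and within the library run the transgenic value was 2.91 ± 0.58 (adjusted p = 0.0121). Microglia replicate 40, the highest of its group, set the size of both: without it they were 4.51 and 3.62.

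Clec4d, which forms receptors together with Mincle, had the largest fold change of the 10 in both comparisons with microglia in the main fit. It stood at 78.1, 46.2 and 31.8 CPM in parabiotic replicates 3, 11 and 15, at 12.03, 11.9, 12.8 and 67.1 CPM in transgenic replicates 23, 24, 26 and 27, and at 0.593, 1.60 and 1.08 CPM in microglia replicates 39, 40 and 41. 3 of the transgenic libraries agreed closely and replicate 27 was several-fold above them, inside the parabiotic range. Its log2 fold change was 5.58 ± 0.83 in parabiotic CD11c cells over microglia (adjusted p = 0.000404). The transgenic value over microglia was 4.58 ± 0.78 (adjusted p = 0.00388), 3.51 without replicate 27 and 3.46 ± 0.67 within the library run (adjusted p = 0.0102). In the fit within the library run, Clec4b1 and not Clec4d had the largest transgenic value over microglia, at 4.06 ± 0.50.

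Clec4e, or Mincle, the receptor for mycobacterial cord factor and for the nuclear protein SAP130 of dead cells, was several-fold higher in every CD11c library than in microglia. It stood at 154, 109 and 62.7 CPM in parabiotic replicates 3, 11 and 15, at 54.3, 49.1, 27.4 and 259.9 CPM in transgenic replicates 23, 24, 26 and 27, and at 6.95, 7.18 and 3.99 CPM in microglia replicates 39, 40 and 41. Transgenic replicate 27 was the highest of all 10 libraries, and the other 3 transgenic libraries lay between the microglia and the parabiotic values. Mincle had a log2 fold change of 4.17 ± 0.79 in parabiotic CD11c cells over microglia (adjusted p = 0.00202). For transgenic CD11c cells over microglia the value was 4.01 ± 0.77 (adjusted p = 0.00723), 2.86 without replicate 27 and 3.09 ± 0.72 within the library run (adjusted p = 0.0266).

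Per kilobase of exon, Clec4d stood at 1.32 to 1.58 times the level of Clec4e in the parabiotic libraries, at 0.688, 0.752, 1.45 and 0.802 times in transgenic replicates 23, 24, 26 and 27, and at 0.265, 0.690 and 0.838 times in microglia replicates 39, 40 and 41. The ratio was above 1 in all 3 parabiotic libraries and in transgenic replicate 26, and below 1 in the other 6. Clec4b1, or DCAR, a receptor for mycobacterial mannosides in mice, was the least abundant member, also per kilobase of exon. It stood at 2.38, 3.62 and 4.37 CPM in parabiotic replicates 3, 11 and 15, at 2.32, 3.77, 1.19 and 0.633 CPM in transgenic replicates 23, 24, 26 and 27, and at 0.226, 0.215 and 0.0950 CPM in microglia replicates 39, 40 and 41, where these are 8, 7 and 3 counts. Its log2 fold change was 4.24 ± 0.69 in parabiotic CD11c cells over microglia (adjusted p = 0.000782) and 3.43 ± 0.66 in transgenic CD11c cells over microglia (adjusted p = 0.00749), with 4.06 ± 0.50 within the library run (adjusted p = 0.000648). The low microglia counts limit the precision of its fold change.

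Neutrophils and monocytes express Clec4d and Clec4e, so markers of both cell types are given beside them. The 10 neutrophil markers summed to 50.7, 768 and 153 CPM in parabiotic replicates 3, 11 and 15, to 18.3, 22.6, 37.5 and 50.8 CPM in transgenic replicates 23, 24, 26 and 27, and to 0.424 to 2.63 CPM in microglia, where Ly6g, Elane and Retnlg had no count. Parabiotic replicate 3, the highest of its group in Clec4d, Clec4e and Clec4n, held 6 counts of S100a9, 0 of Ly6g and 5.05 CPM of S100a8. Most of its neutrophil sum of 50.7 CPM therefore came from other listed markers. Transgenic replicate 27, the highest of all in Clec4e, held 9 counts of S100a9, 0 of Ly6g and 17.8 CPM of S100a8. There too, other listed markers made up most of the sum of 50.8 CPM. The neutrophil sum of transgenic replicate 27 was the highest of its group, as were its Clec4d and Clec4e, while that of parabiotic replicate 3 was the lowest of its group. The part of neutrophils in these lectin levels was not tested. The 8 monocyte markers summed to 2435, 2007 and 1909 CPM in parabiotic replicates 3, 11 and 15, to 2001, 2031, 860 and 3485 CPM in transgenic replicates 23, 24, 26 and 27, and to 898 to 1358 CPM in microglia. The median of their log2 fold changes over microglia was 5.11 (range -0.47 to 10.6) in parabiotic and 3.33 (0.26 to 11.1) in transgenic CD11c cells. The sums, which follow the most abundant markers, differed less between the groups than these medians. The monocyte sum was highest in transgenic replicate 27 and in parabiotic replicate 3, and lowest among the CD11c libraries in transgenic replicate 26. The part of monocytes in the lectin levels was not tested.

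**Figure D2:**
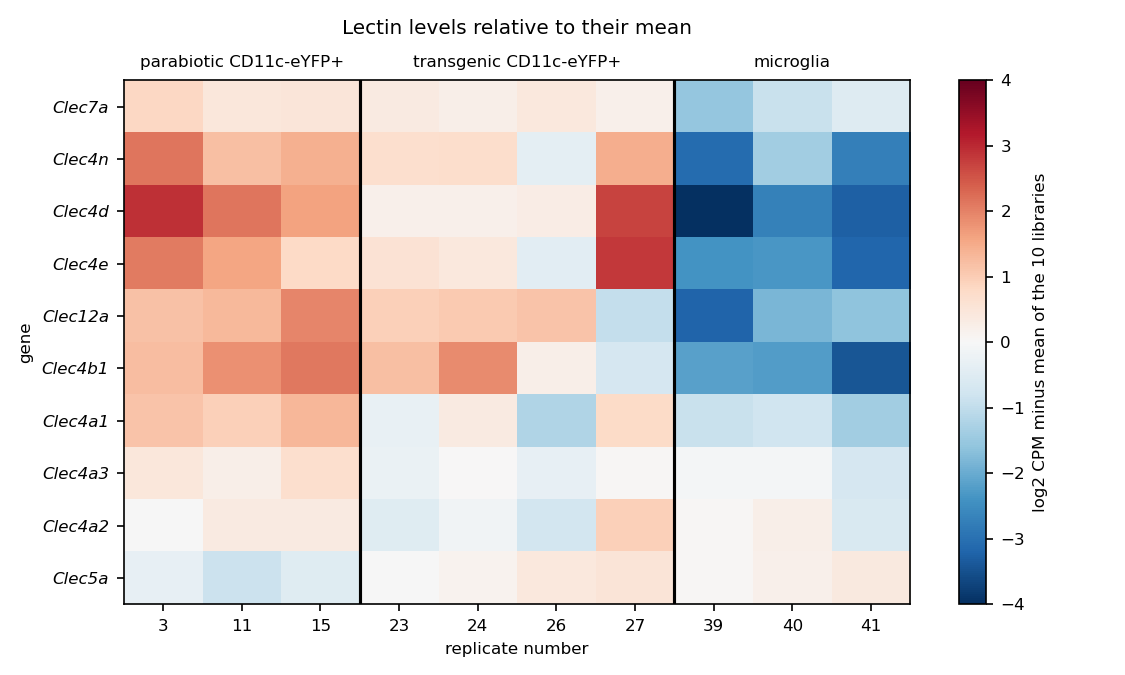
Colour gives the log2 CPM of each lectin gene in each library minus its mean over the 10 libraries, with replicate numbers along the bottom and groups divided by lines. Clec4d and Clec4e stand out in transgenic replicate 27, where Clec12a and Clec4b1 are below their means.

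Clec5a, or MDL-1, signals through the chain Tyrobp (DAP12) and was the member that was lower in parabiotic CD11c cells. It stood at 102, 69.7 and 90.1 CPM in parabiotic replicates 3, 11 and 15, at 125, 139.95, 170.1 and 183 CPM in transgenic replicates 23, 24, 26 and 27, and at 131, 147 and 167 CPM in microglia replicates 39, 40 and 41. The 3 parabiotic libraries were the lowest of all 10, and transgenic and microglia libraries overlapped. The log2 fold change was -0.76 ± 0.20 in parabiotic CD11c cells over microglia (adjusted p = 0.0115), and without parabiotic replicate 11 it was -0.62 and not called (adjusted p = 0.0534). Without parabiotic replicates 11 and 15, which left 1 parabiotic library, it was -0.53. Transgenic CD11c cells over microglia gave 0.06 ± 0.18 (adjusted p = 0.847), and -0.16 within the library run (adjusted p = 0.688).

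Among the receptors with an inhibitory motif, Clec12a, known in mice to bind uric acid crystals of dead cells, was higher in both CD11c groups. It stood at 83.3, 90.5 and 143 CPM in parabiotic replicates 3, 11 and 15, at 71.6, 76.7, 81.5 and 19.0 CPM in transgenic replicates 23, 24, 26 and 27, and at 4.04, 10.3 and 12.2 CPM in microglia replicates 39, 40 and 41. Transgenic replicate 27, the library with the most Clec4d and Clec4e of its group, had the least Clec12a, and the CD11c libraries did not overlap with microglia. Clec12a had a log2 fold change of 3.58 ± 0.56 in parabiotic CD11c cells over microglia (adjusted p = 0.000556) and 2.81 ± 0.52 in transgenic CD11c cells over microglia (adjusted p = 0.00609), with 3.07 ± 0.58 within the library run (adjusted p = 0.00877). The other inhibitory member, Clec4a2, averaged 20.7 ± 2.92 CPM in parabiotic CD11c cells, 18.3 ± 10.8 CPM in transgenic CD11c cells and 16.7 ± 4.69 CPM in microglia (SD, n = 3, 4 and 3). All 3 groups overlapped, with log2 fold changes of 0.31 ± 0.40 in parabiotic (adjusted p = 0.583) and 0.13 ± 0.37 in transgenic CD11c cells over microglia (adjusted p = 0.834).

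The last members belong to the same DCIR subfamily as Clec4a2. Clec4a1 stood at 21.3, 18.8 and 24.2 CPM in parabiotic replicates 3, 11 and 15, at 7.93, 12.4, 4.20 and 16.5 CPM in transgenic replicates 23, 24, 26 and 27, and at 5.25, 5.50 and 3.64 CPM in microglia replicates 39, 40 and 41. The parabiotic libraries were the highest of all, and only transgenic replicate 26 fell within the microglia range. The log2 fold change was 2.16 ± 0.42 in parabiotic CD11c cells over microglia (adjusted p = 0.00229) and 1.10 ± 0.39 in transgenic CD11c cells over microglia, which was not called (adjusted p = 0.0807). Without transgenic replicate 26 the transgenic value was 1.34 and called (adjusted p = 0.0131), and within the library run it was 1.08 (adjusted p = 0.217).

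Clec4a3 averaged 71.5 ± 11.1 CPM in parabiotic CD11c cells, 47.6 ± 6.11 CPM in transgenic CD11c cells and 43.8 ± 9.76 CPM in microglia (SD, n = 3, 4 and 3). The parabiotic libraries, at 60.8 to 83.0 CPM, lay above all others, and transgenic and microglia libraries overlapped. The log2 fold change of 0.71 ± 0.20 in parabiotic CD11c cells over microglia was called (adjusted p = 0.0192), but not without parabiotic replicate 3 (0.72, adjusted p = 0.051), parabiotic replicate 15 (0.59, adjusted p = 0.0806) or microglia replicate 41 (0.52, adjusted p = 0.0673). For transgenic CD11c cells over microglia it was 0.12 ± 0.19 (adjusted p = 0.694), and 0.13 within the library run.

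**Figure D3:**
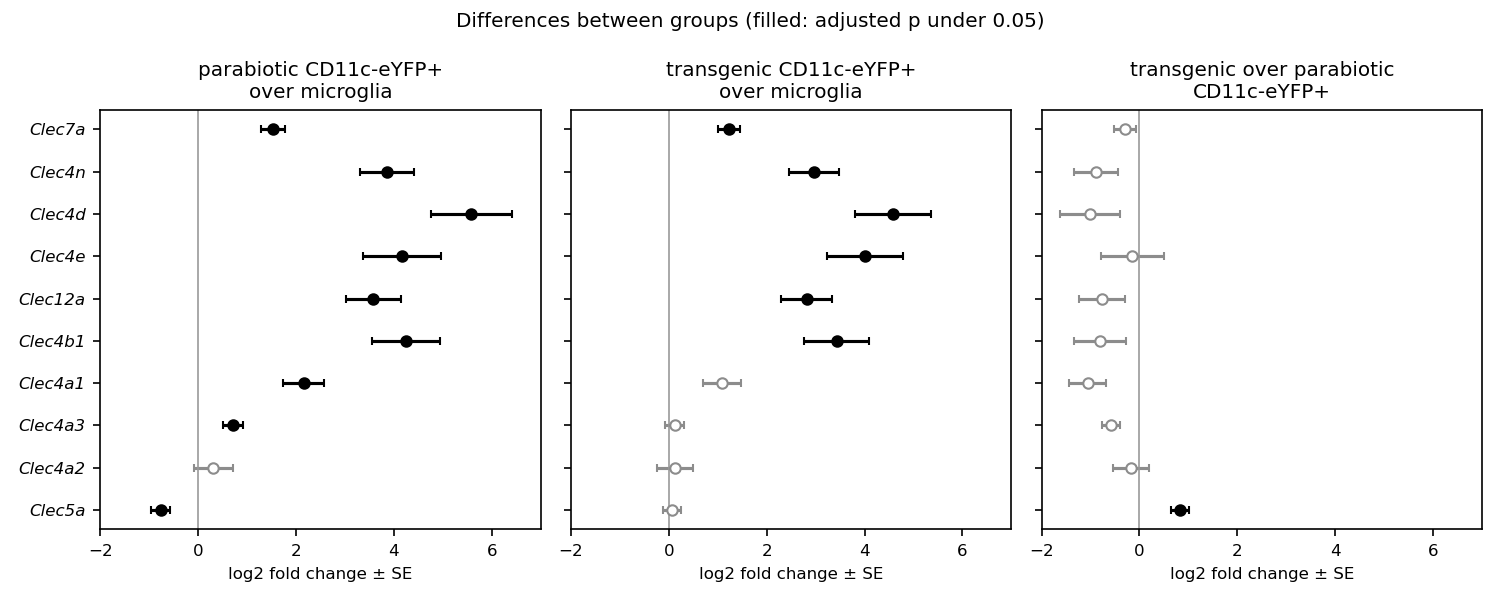
Log2 fold changes ± SE of the 10 lectin genes in the 3 comparisons, from edgeR's quasi-likelihood fit on 10 libraries, with filled points for an adjusted p under 0.05. 8 members are higher and Clec5a is lower in parabiotic CD11c cells over microglia, 6 are higher in transgenic CD11c cells over microglia, and Clec5a alone is called between the CD11c groups.

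Between the CD11c groups, 9 of the 10 lectin transcripts were lower in transgenic than in parabiotic CD11c cells by their estimates, but only Clec5a was called, and it was higher. Of all tested genes, 7.63% were higher, 2.42% lower and 10.1% called in either direction. The members' median log2 fold change was -0.68, against 0.04 over all tested genes. The libraries did not overlap for Clec5a, which was higher in the transgenic group (12.4% of all genes in that direction), nor for Clec4a1, Clec4a3, Clec7a and Clec12a, which were lower there (10.3%). Of those 4 the smallest adjusted p was 0.0756, for Clec4a3 with a log2 fold change of -0.59 ± 0.19.

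Clec5a was higher by 0.82 ± 0.19 on the log2 scale in transgenic than in parabiotic CD11c cells (adjusted p = 0.0175). The call was lost without parabiotic replicate 11 (0.68, adjusted p = 0.0893) or parabiotic replicate 15 (0.84, adjusted p = 0.0652), and within the library run (0.60 ± 0.17, adjusted p = 0.0531). Within the run 0 members were called, where 10.7% of all genes were. The other estimates within the run reached -2.12 ± 0.65 for Clec4d (adjusted p = 0.066) and -1.08 for Clec4a1 (adjusted p = 0.184). The microglia markers summed higher in each transgenic than in each parabiotic library, and their part in the difference of Clec5a was not tested.

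Transgenic replicate 27 decided the count of lectins called between the CD11c groups. Without it, 5 members were called: Clec5a was higher, and Clec4d (-2.08, adjusted p = 0.00313), Clec4e (-1.31, adjusted p = 0.0309), Clec4a1 (-1.39, adjusted p = 0.0188) and Clec4a3 (-0.64, adjusted p = 0.0401) were lower in transgenic than in parabiotic CD11c cells. Calls over all genes also rose without it, to 2510 against 1523 with all libraries, of which 851 against 367 were lower. Without microglia replicate 41, which enters the shared estimate of the spread, Clec4a3 was also called (-0.58, adjusted p = 0.0475). Clec7a was not called with all libraries (-0.30 ± 0.22, adjusted p = 0.463), nor was Clec12a (-0.77 ± 0.46, adjusted p = 0.363) or Clec4n (-0.89 ± 0.45, adjusted p = 0.267). These SEs do not show that the CD11c groups have equal levels.

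The lectins did not vary together among the transgenic libraries. Replicate 27 was the highest of the 4 for Clec4a1, Clec4a2, Clec4a3, Clec4d, Clec4e, Clec4n and Clec5a, and the lowest for Clec7a, Clec12a and Clec4b1. Replicate 26 was the lowest for Clec4a1, Clec4a2, Clec4a3, Clec4e and Clec4n and the highest for Clec7a and Clec12a. The ratio of the highest to the lowest transgenic library was 9.49 for Clec4e, 5.96 for Clec4b1, 5.65 for Clec4d and 4.29 for Clec12a, against 1.29 for Clec4a3 and 1.16 for Clec7a. In the same libraries the microglia markers summed to 17360 CPM in replicate 26, 5964 CPM in replicate 27, and 11219 and 11502 CPM in replicates 23 and 24. Replicates 26 and 27, whose library numbers lie side by side, thus stood at opposite ends of the group for these sums and for several lectins. They stood together in other values. Their dendritic cell markers summed to 4118 and 6946 CPM, against 15700 and 16991 CPM in replicates 23 and 24. Both also lay above replicates 23 and 24 in Clec5a and below them in Clec4b1. The causes were not tested here.

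Per kilobase of exon, the order of the 10 genes differed between the groups below Clec7a. Clec7a averaged 310 ± 47.6 CPM per kb in parabiotic CD11c cells, 252 ± 18.8 in transgenic CD11c cells and 107 ± 36.0 in microglia (SD, n = 3, 4 and 3), above every library of the next gene in each group. In parabiotic CD11c cells Clec4n (83.4), Clec4a3 (53.9), Clec4d (32.5), Clec5a (22.7), Clec4e (21.9), Clec12a (19.1) and Clec4a1 (13.8 CPM per kb) followed, each overlapping with its neighbour in this order. Clec4a2 (7.08) and Clec4b1 (4.41 CPM per kb) came last and did not overlap with the gene above. In transgenic CD11c cells Clec4n (45.0), Clec5a (40.2) and Clec4a3 (35.9 CPM per kb) came next and overlapped, ahead of Clec4e, Clec4d, Clec12a, Clec4a1, Clec4a2 and Clec4b1 (19.7 to 2.52 CPM per kb). In microglia Clec5a (38.6) and Clec4a3 (33.0 CPM per kb) held the next places and overlapped with each other, and no library of theirs overlapped with Clec4n (5.76 CPM per kb) below. Clec4a2 (5.71), Clec4a1 (3.08), Clec12a (1.60), Clec4e (1.22), Clec4d (0.681) and Clec4b1 (0.228 CPM per kb) made up the lower end.

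**Figure D4:**
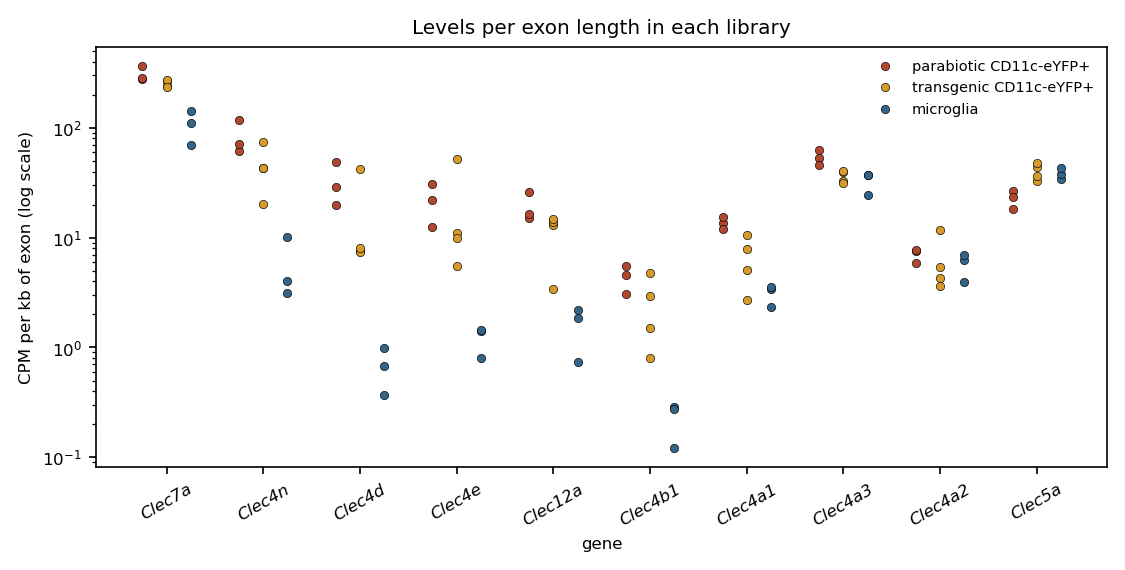
CPM per kilobase of exon (log axis) of the 10 lectin genes, 1 point per library, with parabiotic CD11c, transgenic CD11c and microglia libraries side by side for each gene. Clec7a is the top gene in each group, while Clec4d, Clec4e and Clec12a lie at 2.20 CPM per kb or less in microglia and at 3.44 or more in every CD11c library.

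Summed over the 10 genes, lectin transcripts made up 1249 to 1658 CPM in parabiotic CD11c cells, 1054 to 1355 CPM in transgenic CD11c cells and 405 to 612 CPM in microglia. Clec7a alone held 57.1% to 59.3% of that sum in parabiotic CD11c cells, 45.5% to 65.5% in transgenic CD11c cells and 45.6% to 61.2% in microglia.

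Chains and kinases on which these receptors depend were called about as often as all genes. Of 28 signalling genes tested, 4 were higher, 4 lower and 20 not called in parabiotic CD11c cells over microglia, with a median log2 fold change of -0.05. Of all tested genes 17.4% were higher and 17.9% lower, a share close to that of the list. The guanine exchange factor Vav3 averaged 82.6 ± 10.2 CPM in parabiotic CD11c cells and 6.80 ± 2.87 CPM in microglia (3.60 ± 0.34, adjusted p = 2.33e-05), and the Src family kinase Fgr 234 ± 18.1 and 35.0 ± 9.24 CPM in the same order (2.74 ± 0.31, adjusted p = 7.62e-05). Lyn, a kinase of the same family that also serves inhibitory receptors, was lower (-0.68 ± 0.13, adjusted p = 0.00213), as was the lipid phosphatase Inpp5d (-0.96 ± 0.20, adjusted p = 0.0034). Without parabiotic replicates 11 and 15, which left 1 parabiotic library, the median of the signalling genes was -0.06.

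Syk, Card9, Fcer1g and Tyrobp were picked from this list for their place in the pathway after their values had been seen. Fcer1g averaged 1165 CPM in parabiotic CD11c cells, 1401 CPM in transgenic CD11c cells and 966 CPM in microglia, and it was not called in any comparison (adjusted p = 0.433, 0.141 and 0.556 for parabiotic over microglia, transgenic over microglia and transgenic over parabiotic CD11c cells). Tyrobp, at 1029, 1082 and 895 CPM in the same groups, was not called either (adjusted p = 0.576, 0.453 and 0.902). Syk averaged 429 CPM in parabiotic CD11c cells, 258 CPM in transgenic CD11c cells and 213 CPM in microglia. It was higher in parabiotic CD11c cells over microglia (1.01 ± 0.27, adjusted p = 0.0143), but not called without parabiotic replicate 3 (adjusted p = 0.0545), microglia replicate 39 (adjusted p = 0.0523) or microglia replicate 41 (adjusted p = 0.0513). Card9 was not called in these comparisons, with log2 fold changes of -0.28 ± 0.28 in parabiotic and -0.73 ± 0.26 in transgenic CD11c cells over microglia (adjusted p = 0.464 and 0.0772).

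In transgenic CD11c cells over microglia, 3 of the 28 signalling genes were higher, 2 lower and 23 not called (median -0.21), where 8.88% of all tested genes were higher and 4.79% lower, and within the library run 3 were higher and 0 lower. Vav3 again was higher, at 41.3 ± 9.61 CPM in transgenic CD11c cells and 6.80 ± 2.87 CPM in microglia (2.60 ± 0.32, adjusted p = 0.000568, and 2.84 within the run). Between the CD11c groups 0 signalling genes were higher and 2 lower in transgenic than in parabiotic cells, where 7.63% of all tested genes were higher and 2.42% lower. One of them was Fgr at 85.4 ± 31.2 and 234 ± 18.1 CPM (-1.45 ± 0.27, adjusted p = 0.00636, and -1.06 within the run). Its value was -1.59 without parabiotic replicates 11 and 15, which left 1 parabiotic library. With single libraries left out, the counts over microglia ran between 1 and 4 higher and 0 and 3 lower, lowest without microglia replicate 39 or 40 (1 higher and 0 lower), and those over parabiotic CD11c cells between 1 and 3 lower.

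Genes that these receptors can induce were mostly lower in parabiotic CD11c cells than in microglia. Of 14 listed cytokine and early response genes 13 were tested, and in parabiotic CD11c cells over microglia 1 was higher, 8 lower and 4 not called, with a median log2 fold change of -1.87, where 17.4% of all tested genes were higher and 17.9% lower. The exception was Il1b, the gene of the inflammasome cytokine interleukin-1 beta, at 2188 ± 288 CPM in parabiotic CD11c cells and 953 ± 215 CPM in microglia (1.20 ± 0.23, adjusted p = 0.00213). The cytokine gene Tnf averaged 26.99 ± 8.42 CPM in parabiotic CD11c cells and 835 ± 199.7 CPM in microglia (-4.95 ± 0.32, adjusted p = 3.27e-06), and the inflammasome sensor Nlrp3 108 ± 10.8 and 393 ± 87.5 CPM (-1.87 ± 0.25, adjusted p = 0.000205). The chemokine gene Ccl3 was lower too (-3.08 ± 0.23, adjusted p = 6.7e-06).

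Over microglia, transgenic CD11c cells had 0 output genes higher, 3 lower and 10 not called (median -0.47), where 8.88% of all tested genes were higher and 4.79% lower, and within the library run 1 was higher and 2 lower. The median was 0.08 without microglia replicate 41, and between -0.64 and -0.32 without any other single library. Tnf averaged 333 ± 88.2 CPM in transgenic CD11c cells (-1.33 ± 0.26 over microglia, adjusted p = 0.00733, and -1.42 within the run). Between the CD11c groups, 5 output genes were higher and 0 lower in transgenic than in parabiotic cells, with a median of 1.40, where 7.63% of all tested genes were higher and 2.42% lower, and the same counts held within the run. Tnf (3.63 ± 0.30, adjusted p = 4.98e-05), Ccl3 (1.95 ± 0.21, adjusted p = 0.000293) and the neutrophil chemokine gene Cxcl2 (2.53 ± 0.40, adjusted p = 0.00233) were among them, and within the run their log2 fold changes were 3.54, 1.90 and 1.75. Without parabiotic replicates 11 and 15, which left 1 parabiotic library, the log2 fold change of Cxcl2 was 2.96.

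Most tested genes of the body's own proteins that some of these receptors bind were higher in CD11c cells. Of 5 tested genes of 6 listed, 3 were higher and 1 lower in parabiotic CD11c cells over microglia (median 1.94), 3 were higher and 1 lower in transgenic CD11c cells over microglia (median 1.53), and 0 were higher and 1 lower in transgenic over parabiotic CD11c cells (median -0.39). Of all tested genes, 17.4% were higher and 17.9% lower in the first of these comparisons, 8.88% and 4.79% in the next, and 7.63% and 2.42% between the CD11c groups. The same counts held in the transgenic comparisons within the library run. Anxa1, a lipid-binding annexin whose family is known to bind Dectin-1, stood at 302 ± 25.6 CPM in parabiotic CD11c cells, 128 ± 50.3 CPM in transgenic CD11c cells and 0.739 ± 0.193 CPM in microglia. Anxa1 had a log2 fold change of 8.67 ± 0.41 in parabiotic (adjusted p = 4.98e-07) and 7.44 ± 0.39 in transgenic CD11c cells over microglia (adjusted p = 2.88e-06, and 7.32 within the library run). Vim, the gene of the filament protein vimentin, and the annexin gene Anxa5 were also higher in both comparisons, by 2.75 ± 0.34 and 1.94 ± 0.28 in parabiotic (adjusted p = 0.000127 and 0.000333) and by 2.36 ± 0.32 and 1.53 ± 0.26 in transgenic CD11c cells (adjusted p = 0.00111 and 0.00418). Within the run the transgenic values were 1.85 for Vim and 1.23 for Anxa5. Lgals9, the galectin-9 gene, was lower in parabiotic CD11c cells over microglia (-0.80 ± 0.18, adjusted p = 0.00599). Its value was -0.96 without parabiotic replicates 11 and 15, which left 1 parabiotic library. Lgals9 in transgenic CD11c cells over microglia was also lower with all libraries (-0.59, adjusted p = 0.0421, and -0.79 within the run), and of the single libraries only transgenic replicate 26 and microglia replicate 40 could be left out without losing the call (highest adjusted p = 0.158, without microglia replicate 39).

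**Figure D5:**
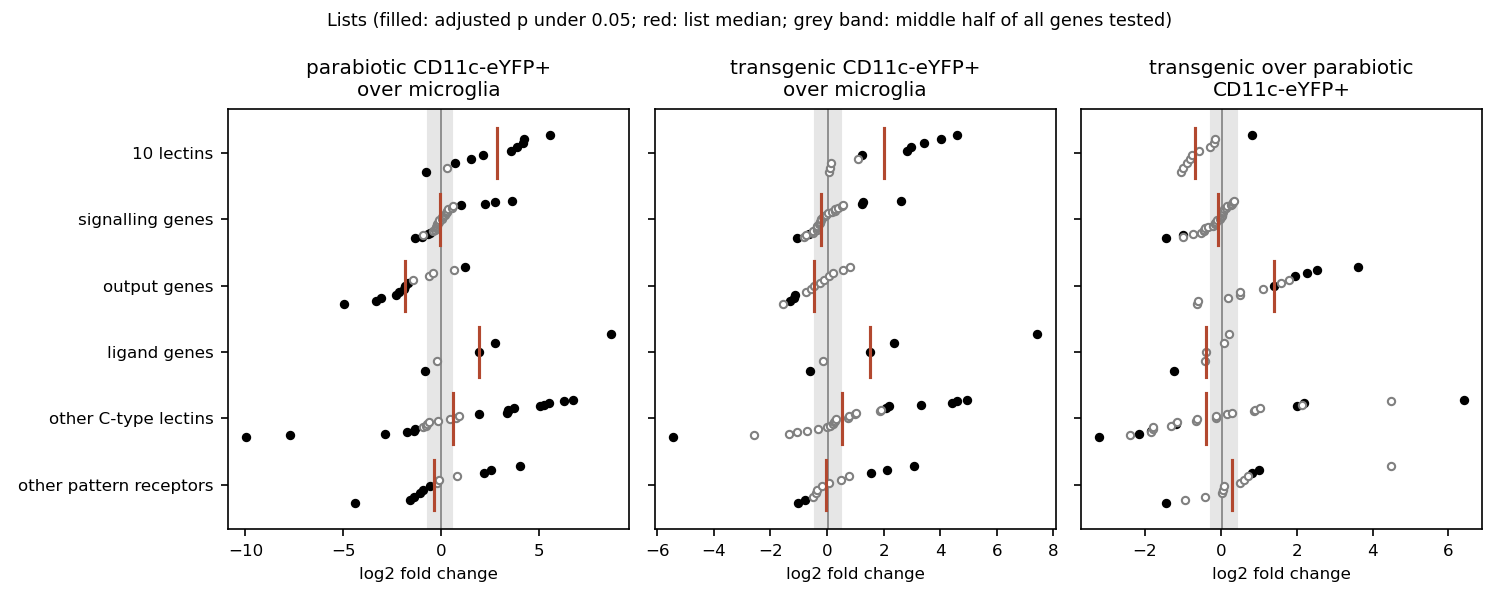
Log2 fold changes of the 10 lectins and of the tested genes of the signalling, output, ligand, other C-type lectin and other pattern receptor lists in the 3 comparisons, with filled points for an adjusted p under 0.05, a red line at each list's median and a grey band for the interquartile range of all tested genes. The medians of the lectins, the ligand genes and the other C-type lectins lie right of the band in both comparisons with microglia. The median of output genes lies left of it in both. Between the CD11c groups the sides are exchanged for these lists. The leftmost point of the other C-type lectins is Cd209f, whose fitted value is no bound because the parabiotic libraries held 0 counts of it.

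Other C-type lectin receptors did not share one direction. Of 24 tested genes of 32 listed, 10 were higher, 6 lower and 8 not called in parabiotic CD11c cells over microglia (median 0.59), 6 were higher, 1 lower and 17 not called in transgenic CD11c cells over microglia (median 0.53), and 3 were higher, 4 lower and 17 not called in transgenic over parabiotic CD11c cells (median -0.38). The shares of all tested genes were 17.4% higher and 17.9% lower, 8.88% and 4.79%, and 7.63% and 2.42% in these comparisons. Within the library run the counts of the transgenic comparisons were 8 higher and 1 lower over microglia, and 3 higher and 2 lower over parabiotic CD11c cells. With single libraries left out, the counts over microglia ran between 2 and 8 higher and 0 and 2 lower, lowest without microglia replicate 39 (2 higher and 2 lower). Those over parabiotic CD11c cells ran between 3 and 5 higher and 1 and 6 lower, with 1 lower without parabiotic replicate 3 or 15, 6 lower without transgenic replicate 24 and 5 higher without transgenic replicate 27. For the oxidised lipoprotein receptor gene Olr1, the parabiotic log2 fold change over microglia was -1.73. It was -1.48 without parabiotic replicates 11 and 15, which left 1 parabiotic library.

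Klrb1b, a lectin of the NK receptor family, averaged 85.7 ± 17.0 CPM in parabiotic CD11c cells and 24.1 ± 13.6 CPM in transgenic CD11c cells, against 1.11 ± 0.404 CPM in microglia (6.26 ± 0.70, adjusted p = 6.51e-05, and 4.43 ± 0.64, adjusted p = 0.00147, with 4.70 within the library run). Its ligand family member Clec2i stood at 57.8 ± 9.94, 25.3 ± 3.17 and 5.59 ± 0.735 CPM in the same 3 groups (3.37 ± 0.21, adjusted p = 2.63e-06, and 2.18 ± 0.19, adjusted p = 0.000103, with 2.29 within the run). Mrc2, a collagen receptor, was nearly absent from parabiotic CD11c cells, at 0.515 ± 0.428 CPM against 111 ± 14.9 CPM in microglia (-7.74 ± 0.96, adjusted p = 0.000124, and -8.41 without parabiotic replicate 15). The macrophage gene Cd209f had 0 counts in parabiotic CD11c cells and 342 counts in microglia, which is at least 115-fold lower against a floor of 3 counts over the parabiotic group. The median of the list is the same with Cd209f at this bound.

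Of 12 other receptors for fungi and glycans, 3 were higher, 6 lower and 3 not called in parabiotic CD11c cells over microglia (median -0.37), where 17.4% of all tested genes were higher and 17.9% lower. Lgals3, the galectin-3 gene, stood at 1626 ± 287 CPM in parabiotic CD11c cells and 99.3 ± 77.4 CPM in microglia (4.03 ± 0.62, adjusted p = 0.000535, and 4.75 without microglia replicate 41). Tlr2, the toll-like receptor that works beside Dectin-1 on yeast particles, stood at 730 ± 43.1 CPM in parabiotic CD11c cells and 1890 ± 248 CPM in microglia (-1.37 ± 0.16, adjusted p = 6.9e-05), and the complement receptor chain Itgam at 222 ± 16.7 and 676 ± 19.5 CPM (-1.61 ± 0.15, adjusted p = 1.99e-05). In transgenic over parabiotic CD11c cells Tlr2 (1.00 ± 0.15, adjusted p = 0.00146) and Itgam (0.83 ± 0.14, adjusted p = 0.00337) were higher, and within the library run the values were 1.08 and 0.96. Without parabiotic replicates 11 and 15, which left 1 parabiotic library, the values were 1.06 for Tlr2 and 0.78 for Itgam. Counts in the transgenic comparisons were 3 higher and 2 lower over microglia (8.88% and 4.79% of all tested genes), and 2 higher and 1 lower over parabiotic CD11c cells (7.63% and 2.42%), and within the run 2 higher and 1 lower in each. Without parabiotic replicate 3 or 11, 0 were lower in transgenic than in parabiotic CD11c cells, and without microglia replicate 41, 1 was lower in transgenic CD11c cells over microglia. For Tlr6, another toll-like receptor gene, the log2 fold change in parabiotic CD11c cells over microglia was -0.92. It was -0.98 without parabiotic replicates 11 and 15.

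For 4 members the genes with the most similar pattern were sought by Pearson's r of log2 CPM over the 10 libraries. The search covered 9442 tested genes with a mean of at least 5 CPM. It left out the 10 lectins themselves, predicted genes and clone names, so other lectins could not appear among the results. The libraries share 3 groups, so r mainly describes the differences between groups, and no test is attached. Clec7a was followed most closely by Ahnak2 (r = 0.990), the centromere histone gene Cenpa (0.987) and Gpnmb (0.987), a lysosomal membrane glycoprotein. Gpnmb averaged 7286 CPM in parabiotic CD11c cells, 2594 CPM in transgenic CD11c cells and 90.5 CPM in microglia. Clec4n was followed by the kinase gene Map4k3 (0.994), Gas7 (0.984) and the retinoic acid receptor gene Rara (0.982). Clec4e was followed by the phosphatase gene Ptpn12 (0.988), S100a10 (0.988) and Nt5e (0.983), the ectoenzyme CD73. Clec12a was followed by the interferon-inducible gene Mndal (0.995), Tmem51 (0.986) and the cation channel gene Mcoln3 (0.984).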

How the data were processed

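Sorted cells of 10 libraries were sequenced after SMART-Seq v4 amplification and NEBNext Ultra DNA library preparation, per the labels' protocols. The authors deposited whole-number read counts per gene, which are not normalized. Reads were handled with FastQC 0.11.5, STAR 2.5.3a and DESeq2 on GRCm38, per the submitters' processing notes, and the counting program, annotation and use of strand were not given in the sources used here. Library totals were 31534625 to 41730688 counts. Clec4b1 had the fewest counts of the lectins, 18 over the microglia group. The parts of depth and of spread between libraries in the SEs were not separated.

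Symbols came from GENCODE M21, which matched 28492 of 28585 gene IDs. The low-count filter of edgeR, filterByExpr, left 15151 genes and took out 13434. The main test was edgeR 4.0.16 (R 4.3.3) with TMM scaling and robust quasi-likelihood F tests on all 10 libraries with group as the only term, Benjamini-Hochberg adjustment over all tested genes and a threshold of 0.05. Spread between replicates was a BCV of 0.317 (dispersion 0.100). SEs are the absolute log2 fold change divided by the square root of F. The scripts were tested on simulated data. Alternatives were DESeq2 1.42.0, limma-voom (limma 3.58.1), RLE and upper quartile scaling, a filter of at least 5 CPM in 3 libraries, no filter, non-robust dispersion, fits of only the compared groups, a term for the library run and leaving out each library. The lectins and the gene lists were chosen with earlier results of these data known. Named were the 10 lectins, up to 3 called genes of lowest p per list, comparison and direction (those that lost their call without single libraries stand mostly among the other observations), the 3 genes of most similar pattern for 4 lectins, and marker genes beside a result.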

Additional observations from a re-analysis of the deposited data

Results flagged for a closer look

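In 3 of the 10 lectin genes, transgenic replicate 27 stood apart from the other 3 transgenic libraries by more than Dixon's 95% critical value of 0.829 for 4 samples. Clec4d stood at 67.1 CPM there (gap over range 0.984), Clec4e at 259.9 CPM (0.884) and Clec12a at 19.0 CPM (0.842), so the first of these were far above and Clec12a far below the others. 10 transgenic groups were tested, and chance flags about 1 in 20 groups. The 3 genes were measured in the same library and are not independent. In that library the microglia markers summed to 5964 CPM and the monocyte markers to 3485 CPM, the lowest and the highest of the 4 transgenic libraries, and their part in these levels was not tested.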

How the results depend on the processing

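No paired analysis was possible because the groups share no replicate numbers. The 6 lectin calls in transgenic CD11c cells over microglia were kept without any single library. In parabiotic CD11c cells over microglia, 3747 to 6458 genes were called with single libraries left out, and 2337 without parabiotic replicates 11 and 15, a setting chosen after seeing the data that leaves 1 parabiotic library, assumed to vary like the others. In transgenic CD11c cells over microglia the main count of 2070 genes was 3437 by DESeq2, 1229 with only the compared groups, 1303 with the library run term, 1165 without replicates 11 and 15, and 746 (without microglia replicate 39) to 2684 (without transgenic replicate 24) with single libraries left out. In transgenic over parabiotic CD11c cells the main 1523 became 2419 by DESeq2, 999 with only the compared groups, 281 without replicates 11 and 15, and 830 (without parabiotic replicate 3) to 2510 (without transgenic replicate 27). The lectins called there numbered 3 by DESeq2, which added Clec4a1 and Clec4a3, 0 with the run term, 0 without replicates 11 and 15, and 0 to 5 with single libraries left out.

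Signs turned only for lectins not called. In transgenic CD11c cells over microglia, Clec4a2 was -0.24 with the run term and -0.35 to 0.31 with single libraries left out, Clec5a was -0.16 and -0.035 to 0.15, and Clec4a3 was -0.065 to 0.20 with single libraries left out. In transgenic over parabiotic CD11c cells, Clec4e ran between -1.31 and 0.18 with single libraries left out, and Clec4a2 was 0.057 without replicates 11 and 15. The share of called genes that were higher was 65% in transgenic CD11c cells over microglia, 51% by limma-voom and 78.5% with the run term. In transgenic over parabiotic CD11c cells it was 75.9%, 64.2% by limma-voom and 65.1% by DESeq2. The causes were not tested. Each group had only 3 or 4 libraries, which limits the precision for all lectins, and Clec4b1 also had few counts in microglia.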

Other observations

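Further lectin receptors and partner genes differed between the CD11c groups. In transgenic over parabiotic CD11c cells the oxidised lipoprotein receptor gene Olr1 stood at 48.5 ± 12.5 CPM and 12.02 ± 2.06 CPM (log2 fold change 2.01 ± 0.30, adjusted p = 0.00173, and 1.89 within the library run), and the scavenger collectin gene Colec12 was higher as well (2.19 ± 0.36, adjusted p = 0.00289, and 1.65 within the run). The collagen receptor gene Mrc2 stood at 44.0 ± 30.5 CPM in transgenic and 0.515 ± 0.428 CPM in parabiotic CD11c cells (6.41 ± 0.90, adjusted p = 0.00118, 7.02 within the run and 7.08 without parabiotic replicate 15). Clec2i was lower in transgenic CD11c cells (-1.19 ± 0.17, adjusted p = 0.00137, and -1.08 within the run). These 4 calls were kept without any single library. Leaving out parabiotic replicates 11 and 15 together left 1 parabiotic library. The log2 fold changes were then 1.75 for Olr1, 2.25 for Colec12, 6.24 for Mrc2 and -0.99 for Clec2i. Ly75, the endocytic receptor DEC-205 of dendritic cells, was lower in transgenic CD11c cells (-3.21 ± 0.73, adjusted p = 0.0169), but not called without parabiotic replicate 3 or 15 (adjusted p = 0.0586 and 0.0537). Cd209c, Scarf1, Anxa1 and Vav3 were also lower there with all libraries (adjusted p = 0.041, 0.0191, 0.0132 and 0.0493), and each lost its call without parabiotic replicate 3.

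Over microglia, the scavenger receptor gene Cd36 was higher in parabiotic (2.54 ± 0.44, adjusted p = 0.00108) and in transgenic CD11c cells (2.13 ± 0.41, adjusted p = 0.00774, but 1.35 within the library run). Malt1, a protease of the Card9 complex, stood at 170.4 ± 44.5 CPM in parabiotic CD11c cells and 36.1 ± 2.27 CPM in microglia (2.24 ± 0.39, adjusted p = 0.00118). Its transgenic call over microglia (1.23 ± 0.36, adjusted p = 0.0453) was lost without most single libraries. The dendritic cell lectin gene Cd209a was higher in transgenic CD11c cells (4.95 ± 0.97, adjusted p = 0.00797), 4.30 without transgenic replicate 24, and not called without microglia replicate 39 (adjusted p = 0.0515). Ccl3 and Itgam were lower in transgenic CD11c cells over microglia (-1.13 ± 0.20 and -0.78 ± 0.14, adjusted p = 0.00476 and 0.00431), and were kept within the run at -1.18 and -0.65.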
